A study of Homo sapiens with 6 samples.

Results

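The genes described here are 10 transcriptional feedback and output genes of the ERK pathway: the MAPK phosphatases DUSP4, DUSP5 and DUSP6, the Sprouty genes SPRY1, SPRY2 and SPRY4, the Spred genes SPRED1 and SPRED2, and the PEA3 group ETS factors ETV4 and ETV5. They were chosen by gene name and were measured by 12 of the 34127 gene probes (10 of 25940 gene names) on each Agilent array. The lines compared were both derived from T47D human breast cancer cells (T47Dco) grown as xenografts. pLUM (pure Luminal, CLD3+CD49f-, 3 arrays) came from an E (estradiol) tumor and had been given E at 1 nM for 72 h. pLB (pure Luminobasal, CLD3-CD49f+, 3 arrays) came from a tumor under E plus P (progesterone) and was kept under EWD (estrogen withdrawal). Both tumors had grown in ovariectomized NSG mice, and each is a single derivation. Line and hormone therefore coincided on every array, and their parts in any difference cannot be told apart. The arrays of a line carried RNA from separate sorts of that line, so that p-values measure the spread between sorts. Cells were stained and sorted for CK5 (cytokeratin 5) before RNA extraction, and the labels do not state which fraction was hybridized.

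ERK is the last kinase of the RAS, RAF and MEK cascade, which carries signals from growth factor receptors such as EGFR to the nucleus. Active ERK switches on genes that feed back on the cascade: DUSP phosphatases remove phosphate from ERK itself, and Sprouty and Spred proteins act higher up, between the receptor and RAF. ETV4 and ETV5 are transcription factors that are induced by the pathway and carry its output. The transcripts of these genes are widely used as a readout of how much ERK signalling a cell has received, although the arrays measured RNA and not the activity of ERK.

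RNA of 9 of the 10 genes was called higher in pLB than in pLUM, and none was called lower. A probe was called where the lines differed at least 2-fold and the adjusted p from limma was under 0.05. By this rule 10 of the 12 probes were called higher in pLB, where 21.9% of all 23103 probes tested were, and 0 of the 12 were called lower, where 23.7% of all probes were. With each gene represented by its brightest probe, 9 of 10 were called higher against 22.7% of the 17668 genes tested, and 0 of 10 lower against 23% of them. The exception was DUSP5, at 1.93-fold. For all 10 representative probes every pLB array lay above every pLUM array, which held for 35.7% of all genes. Among the 5 genes whose representative probe was detected in both lines, the differences ranged from this 1.93-fold to 71.1-fold for DUSP6. The other 5 genes could be given only a lower bound by that probe. The representative probes of these 5 (SPRY4, SPRED1, SPRED2, ETV4 and ETV5) were detected on no pLUM array, where detected means flagged by the scanner software as well above background. They entered the test through pLB alone, so that a difference in their direction was fixed by the filter. SPRY4 had a further probe that was detected on every array and was not called, at 1.48-fold. In pLUM this further probe was the brighter one. The other became the representative probe of SPRY4 through its pLB signal, so that this choice depended on the difference itself. Of the 5 genes measured in both lines by their representative probe, DUSP4, DUSP6, SPRY1 and SPRY2 were called higher.

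Signals are given throughout on the log2 scale relative to the 75th percentile of the array, so that 0 is the signal at that percentile and a step of 1 is a 2-fold difference. The lowest detected signal of an array, called its floor here, was between -5.70 and -4.75 on this scale. Where a probe was undetected throughout pLUM, its fold is a lower bound for signals with the deposited background subtraction. Each pLUM signal under the floor of its array was raised to that floor before the pLB mean was set against the pLUM mean. The limma adjusted p beside such a bound is that of the fitted difference, without the floor. It does not test the bound, nor does it bear on the direction, which the filter fixed. Levels were not compared between genes, since probes differ in brightness. In RNA from many cells, a larger share of cells with a transcript and more transcript per cell cannot be told apart.

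The arrays matched the labels of the lines. The luminobasal markers KRT5, CDH3, ITGA6 and TP63 were called higher in pLB (4 of 4), and the luminal markers GATA3, CLDN3, MUC1 and PGR were called lower (4 of 4). The lines were isolated by ITGA6 (CD49f) and CLDN3 (CLD3), and cells were sorted for KRT5 (CK5), so that these genes are no independent check. KRT5 and TP63 were detected on no pLUM array and PGR on no pLB array, so that the filter fixed their direction. Of 5 stromal and blood cell markers, PECAM1, COL3A1 and PDGFRB were detected on no array, and PTPRC and COL1A1 were detected and not called by their representative probes. A further PTPRC probe was detected on every array and called lower in pLB (log2 fold change -1.20, limma adjusted p = 0.0045). The remaining PTPRC probes were detected on no array. EGFR, the receptor on which the study turned, was 180-fold higher in pLB by its brightest probe (-5.05, -5.37 and -4.91 on the pLUM arrays and 2.59, 2.27 and 2.28 on the pLB arrays, limma adjusted p = 4.1e-07), and was detected on 2 of 3 pLUM arrays, where it lay near the floor. With normexp its log2 fold change fell from 7.49 to 4.87, and its other probes gave at least 17.2-fold and 5.07-fold. All 3 pLUM arrays and pLB replicate 1 were on slide 1, and pLB replicates 2 and 3 on slide 2. With slide as a block, which sets pLB replicate 1 against the pLUM arrays of the same slide, the 10 representative probes gave log2 differences of 1.08 to 6.04.

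Reference promoters were available for DUSP6, SPRY1, SPRY2, SPRY4, SPRED1 and SPRED2 (6 of 10 genes, 10 start sites, RefSeq, GRCh38.p14). Each was searched from 250 bases before to 50 after the start site, on both strands. The stretch around the DUSP6 start site is shown because DUSP6 had the largest fitted difference and because it alone of the 6 genes held a binding sequence of CIC (capicua), a repressor that ERK signalling inactivates and whose known targets include ETV4, ETV5 and DUSP6. The 4 octamers searched were tgaatgaa, tgaatgga, tcaatgaa and tcaatgga, and capitals mark the matches, which read as the reverse complement of the last octamer (chr12:89352490-89352565, minus strand):
DUSP6: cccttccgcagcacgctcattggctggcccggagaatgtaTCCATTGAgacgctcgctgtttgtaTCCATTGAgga
The first match begins 24 bases before the start site, the second at base 2 of the transcript, and they do not overlap. An octamer was present in 3.77% of all 35116 promoters in the table, and 2 or more in 0.327% of them. The ETS sequence ccggaag was in 10.3% of promoters and, among the 6 genes, in SPRY1. The AP-1 sequence tgantca was in 7.71% of promoters and, among these genes, in SPRED2, with 2 matches, and the CRE sequence tgacgtca was in 1.85% and in none of the 6. No match of one motif overlapped that of another. These matches describe the letters of the windows and are not evidence of binding. CIC and its octamers were chosen after the values of the members were known.

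DUSP4, DUSP5 and DUSP6 are dual-specificity phosphatases that act on MAP kinases. DUSP4 and DUSP5 reside in the nucleus, and DUSP6 is cytoplasmic and selective for ERK. DUSP6 was measured by a probe at base 2453 of NM_001946 (hg19 chr12:89742144-89742203, minus strand). Its signal was -2.42, -2.79 and -3.34 on pLUM replicates 1 to 3 and 3.19, 3.24 and 3.47 on pLB replicates 1 to 3. The signal was below the 75th percentile of every pLUM array and far above that of every pLB array, and the gap between the lines was many times their spread. The means were -2.85 ± 0.47 (SD, n = 3) and 3.30 ± 0.15 (SD, n = 3), and the difference was 71.1-fold (95% confidence interval 46.9 to 107.7; limma adjusted p = 2.1e-06). The deposited intensities behind these values were 55.7 to 88.6 on the pLUM arrays and 4973.9 to 7914.6 on the pLB arrays. Of the 17668 genes tested, 1.08% had a larger fitted increase in pLB.

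DUSP4 (probe at base 1758 of NM_001394, chromosome 8) gave -2.68, -3.13 and -3.44 on the pLUM arrays and 0.45, 0.39 and 0.40 on the pLB arrays. The pLB arrays were almost identical to each other and all lay over 3 log2 units above the highest pLUM array. DUSP4 was 11.3-fold higher in pLB (3.49 ± 0.22 as log2 and its standard error, limma adjusted p = 1.3e-05).

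DUSP5 (base 2125 of NM_004419, hg19 chr10:112270900-112270959, plus strand) had the smallest difference of the 10 genes. Its signal was -2.66, -2.66 and -2.45 in pLUM and -1.51, -1.72 and -1.68 in pLB. The lines did not overlap, and limma gave an adjusted p of 0.0016, but the fitted difference of 1.93-fold (95% confidence interval 1.49 to 2.51) stayed just under the 2-fold threshold. DUSP5 passed that threshold with slide as a block (log2 fold change 1.08), with median scaling (1.004) and without pLUM replicate 3 (1.02), and with normexp it gave 0.42 (limma adjusted p = 0.15). The log2 fold changes differed by -5.20 for DUSP5 minus DUSP6, by 2.54 for DUSP4 minus DUSP5 and by -2.66 for DUSP4 minus DUSP6. For each of these 3 pairs the exact two-sided permutation test gave p = 0.1, the smallest that 3 arrays against 3 allow, and 0.133 after adjustment over the 8 pairs of related genes tested, so that this test could not pass the threshold for any pair, whatever the size of the difference. Within an array, DUSP5 minus DUSP6 averaged 0.26 on the pLUM arrays (SD 0.58, n = 3) and -4.94 on the pLB arrays (SD 0.23, n = 3).

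**Figure D1:**
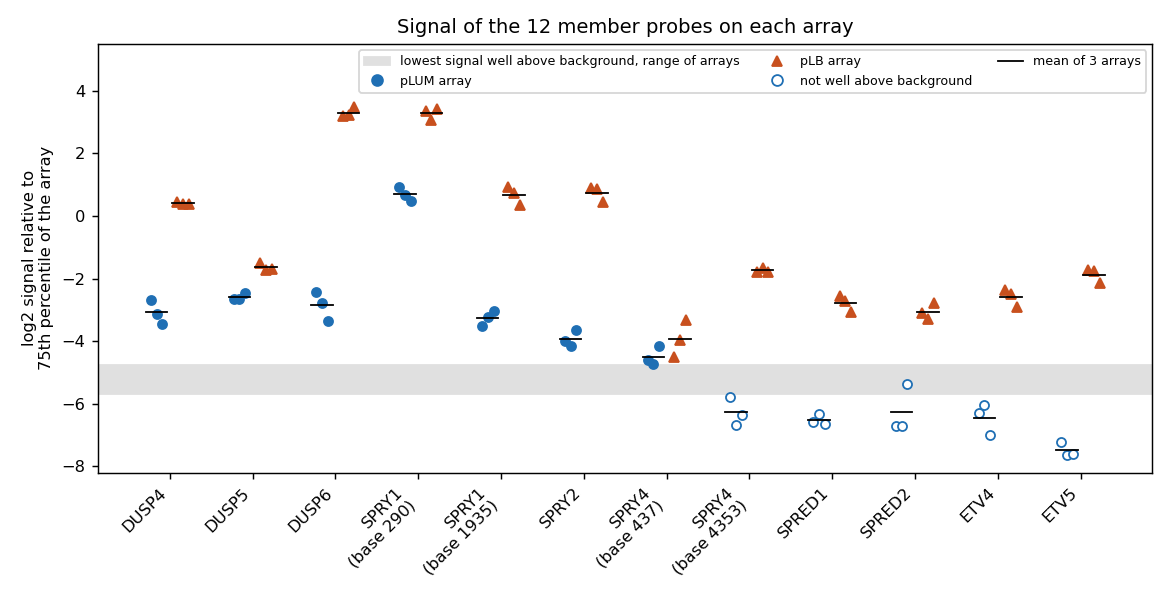
Signal of each of the 12 probes on each array, as log2 relative to the array's 75th percentile, for pLUM (circles) and pLB (triangles), with a line at the mean of 3 arrays and open symbols where the line had no detected signal. The lines are separated for every probe but that of SPRY4 at base 437, and the pLUM points of SPRED1, SPRED2, ETV4, ETV5 and SPRY4 at base 4353 lie in or below the grey band of the floors (-5.70 to -4.75).

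Sprouty proteins are inhibitors of receptor tyrosine kinase signalling that are induced by the signal they restrain. SPRY2 (base 1540 of NM_005842, hg19 chr13:80910622-80910681, minus strand) gave -3.98, -4.17 and -3.64 on the pLUM arrays and 0.91, 0.85 and 0.46 on the pLB arrays. It was detected throughout, the lines were far apart, and it was 25.5-fold higher in pLB (4.67 ± 0.21 as log2 and its standard error, limma adjusted p = 3.1e-06).

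SPRY1 was measured by a pair of probes. The brighter one, at base 290 of ENST00000505319 (hg19 chr4:124318918-124318977, plus strand), gave 0.93, 0.66 and 0.48 in pLUM and 3.36, 3.07 and 3.42 in pLB, or 6.03-fold higher in pLB (limma adjusted p = 2.9e-05). The other, at base 1935 of NM_199327 (hg19 chr4:124324494-124324553, plus strand), gave -3.51, -3.24 and -3.03 in pLUM and 0.92, 0.73 and 0.35 in pLB, or 15.2-fold higher (limma adjusted p = 7.5e-06). Both probes were called and neither overlapped between lines. Their log2 fold changes differed by 1.33 (exact two-sided permutation test, p = 0.1, the smallest possible) and by 0.15 with normexp background correction.

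The SPRY4 probes differed in outcome. The probe at base 4353 of NM_030964 (hg19 chr5:141690571-141690630, minus strand) gave -5.79, -6.69 and -6.35 in pLUM, where it was undetected, and -1.78, -1.66 and -1.78 in pLB. The increase in pLB was at least 12.4-fold (limma adjusted p = 6.7e-06 for the fitted difference). The probe at base 437 of the same transcript (hg19 chr5:141694487-141694546, minus strand) is shown because its result differed. Capitals mark the single reading frame of its 60 bases that holds no stop codon:
SPRY4 at base 437: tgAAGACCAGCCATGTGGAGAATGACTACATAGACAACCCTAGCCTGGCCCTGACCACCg
It was detected on all 6 arrays, at -4.59, -4.74 and -4.17 in pLUM and -4.52, -3.96 and -3.31 in pLB, and the lines overlapped. Its difference was 1.48-fold (95% confidence interval 0.875 to 2.52; limma adjusted p = 0.16) and changed sign with normexp background correction (log2 fold change -0.25) and with slide as a block (-0.02). The log2 fold change of the probe at base 4353 exceeded that of the probe at base 437 by 3.96 as fitted, by 3.06 with the dim signals raised to the floor and by 1.52 with normexp (exact two-sided permutation test of the fitted difference, p = 0.1, the smallest possible). The call of SPRY4 therefore rests on the probe at base 4353, which was its brightest probe through the pLB arrays only. Whether the probes read different transcript forms was not tested.

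**Figure D2:**
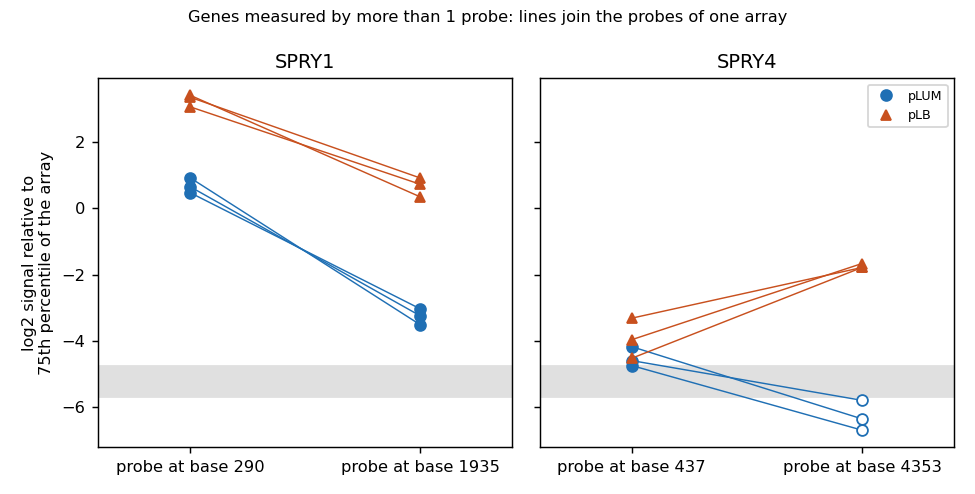
Signal on each array of both probes of SPRY1 and both of SPRY4, as log2 relative to the array's 75th percentile, with lines joining the probes of one array and open symbols where the line had no detected signal. pLB (triangles) and pLUM (circles) are apart at both SPRY1 probes, but at SPRY4 they are apart at base 4353 and overlap at base 437.

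The difference in log2 fold change was -2.08 for SPRY1 minus SPRY2 and -1.94 for SPRY1 minus SPRY4 (p = 0.1 for each by the exact permutation test, adjusted 0.133), the latter with the dim SPRY4 signals at their fitted values. SPRY1 minus SPRY4 became -1.04 with dim signals raised to the floor and 1.28 with normexp. SPRY2 minus SPRY4, for which the pLUM signal of SPRY4 was likewise undetected, was 0.14 as fitted, 1.04 with the floor and 1.80 with normexp, and turned to -0.13 as fitted without pLUM replicate 1. The order of the Sprouty genes by their differences was thus not settled where SPRY4 was involved.

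Spred proteins are Sprouty relatives that hold the RAS inhibitor neurofibromin at the membrane. Neither SPRED1 nor SPRED2 was detected on a pLUM array, and both were so on every pLB array. SPRED1 (base 3564 of NM_152594, hg19 chr15:38645760-38645819, plus strand) gave -6.57, -6.33 and -6.64 in pLUM and -2.57, -2.73 and -3.06 in pLB, at least 6.02-fold higher (limma adjusted p = 5.5e-06). SPRED2 (base 3516 of NM_181784, hg19 chr2:65538851-65538910, minus strand) gave -6.70, -6.72 and -5.38 in pLUM and -3.11, -3.28 and -2.77 in pLB, at least 4.94-fold higher (limma adjusted p = 2.6e-04). SPRED2 varied most among the pLUM arrays of the representative probes (SD 0.77), through replicate 3. SPRED1 minus SPRED2 in log2 fold change was 0.51 as fitted, 0.29 with dim signals raised to the floor and 0.15 with normexp, and since both were undetected in pLUM their differences could not be ordered.

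ETV4 and ETV5 are ETS transcription factors of the PEA3 group, and both were dim in pLUM. ETV5 (base 3601 of NM_004454, hg19 chr3:185764547-185764606, minus strand) gave -7.23, -7.63 and -7.61 in pLUM and -1.74, -1.75 and -2.15 in pLB. The deposited intensities were 2.8 to 3.2 on the pLUM arrays, under the floor of each, and 101.1 to 260.6 on the pLB arrays, and the gap was many times the spread within either line. ETV5 was at least 11.3-fold higher in pLB (limma adjusted p = 1.2e-06 for the fitted difference). ETV4 (base 1577 of NM_001079675, hg19 chr17:41605966-41606025, minus strand) gave -6.29, -6.03 and -7.01 in pLUM and -2.38, -2.48 and -2.91 in pLB, at least 6.91-fold higher (limma adjusted p = 2.9e-05). The difference in log2 fold change, ETV4 minus ETV5, was -1.75 as fitted and -0.71 with dim signals raised to the floor (p = 0.1 for the fitted difference by the exact permutation test, adjusted 0.133).

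The median log2 fold change of the 10 genes was 3.79 as fitted and 3.14 with the 5 dim genes at their bound. The median of all genes tested was 0.04. Since the direction of the 5 dim genes was fixed by the filter, these medians do not show a direction shared by all 10. The genes with a representative probe detected in both lines gave 3.49 (DUSP4), 0.95 (DUSP5), 6.15 (DUSP6), 2.59 (SPRY1) and 4.67 (SPRY2). The sizes of the dim genes depended on the background correction and its offset. Normexp was run with an offset of 50 added to every signal, which by itself lowers the folds of dim signals. How much of the change came from the offset was not tested. Normexp called 3004 of all 23103 probes higher and 4033 lower, against 5054 and 5476 with the deposited background subtraction. Of the probes of the 10 genes it called 7 higher. With normexp, 6 of the 10 genes were called higher: DUSP6 at 34.4-fold, SPRY2 at 8.37-fold, SPRY1 at 5.82-fold, DUSP4 at 5.38-fold, ETV5 at 2.56-fold and SPRY4 at 2.40-fold. SPRED1, SPRED2 and ETV4 then gave log2 fold changes of 0.54, 0.39 and 0.52, with limma adjusted p of 0.25, 0.41 and 0.27, and were not called. All 5 dim genes thus fell below the bounds given above, which hold only for the deposited background subtraction. Leaving out each array in turn changed no call but that of DUSP5, and the log2 fold change of the other 9 genes stayed between 2.48 and 6.37.

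**Figure D3:**
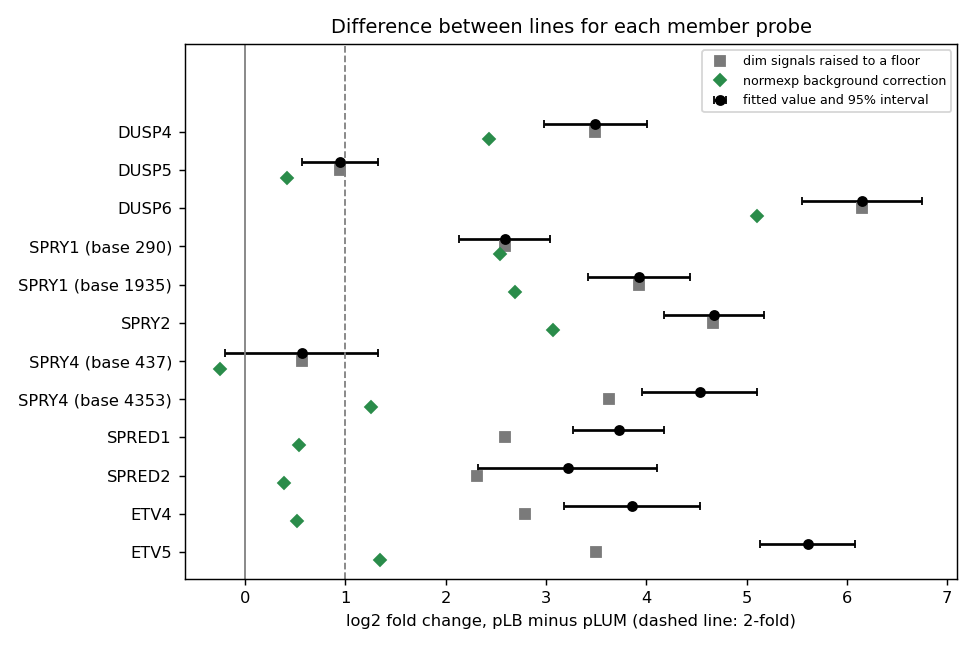
Log2 fold change, pLB minus pLUM, of each of the 12 probes as fitted (circles, with the 95% confidence interval), with dim signals raised to the floor of the array (squares) and with normexp background correction (diamonds). The phosphatases, SPRY1 and SPRY2 are the same with and without the floor, whereas SPRED1, SPRED2 and ETV4 move from above 3 as fitted to about 0.5 with normexp, below the dashed line at 2-fold.

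Among 42 further genes of the pathway in 4 lists, 41 were tested. Of these 18 were called higher in pLB, 4 lower and 19 in neither direction, where 22.7% of all genes were called higher and 23% lower. Of the 18, 3 (PHLDA1, EPHA2 and DUSP7) were detected on no pLUM array, so that their direction was fixed by the filter. With normexp the calls were 9 higher and 1 lower, and those over all 23103 probes were 3004 higher and 4033 lower.

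Other output genes were called higher in 6 of 7 cases, where 22.7% of all genes were, with a median log2 fold change of 2.17. EGR1, an immediate early transcription factor, gave -4.01, -4.23 and -4.31 in pLUM and 1.79, 1.27 and 1.28 in pLB, 49.6-fold higher (limma adjusted p = 1.3e-06). PHLDA1 was at least 15.5-fold and the receptor EPHA2 at least 10.7-fold higher, neither being detected on a pLUM array. Both entered the test through pLB alone, so that their direction was fixed by the filter. FOSL1, an AP-1 subunit, was 4.51-fold, IER3 3.96-fold and CCND1 (cyclin D1) 2.64-fold higher. EPHA4 was the one not called, at 1.69-fold (limma adjusted p = 0.0062) with no overlap between the lines. With normexp EPHA2 (log2 fold change 0.98) and CCND1 (0.43) were no longer called, and EGR1 (3.88), PHLDA1 (1.49) and FOSL1 (1.17) still were. IER3, FOSL1, EGR1 and CCND1 were detected on every pLUM array, so that their pLUM levels were measured and not bounds.

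Other negative regulators were called higher in 5 of 8 cases and lower in none, with a median of 1.11. Of all genes, 22.7% were called higher and 23% lower. LRIG1 went the other way, 1.80-fold lower in pLB with no overlap between the lines (log2 fold change -0.85, limma adjusted p = 0.02). It stayed short of the 2-fold threshold. IL17RD (Sef), which holds active MEK and ERK out of the nucleus, gave -5.98, -6.16 and -5.05 in pLUM and -2.30, -2.83 and -2.72 in pLB. It was detected on 1 of 3 pLUM arrays and 8.65-fold higher in pLB as fitted, and with normexp it was not called (log2 fold change 0.61). RASAL2, a RAS GTPase activating protein, was 5.76-fold higher, and ERRFI1 (MIG6), a feedback inhibitor of EGFR, was 3.23-fold higher, with -0.50, -0.29 and 0.05 in pLUM and 1.63, 1.69 and 1.02 in pLB. RASA1 at 2.29-fold and the ubiquitin ligase CBL at 2.04-fold completed the 5. Without pLB replicate 3 the RASA1 call was lost (log2 fold change 0.96), and without pLUM replicate 2 or 3 that of CBL (0.999 and 0.998). With slide as a block neither was called (0.85 for RASA1 and 0.92 for CBL), and with normexp CBL was not called (0.71).

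Of 10 relatives of these genes in the same families, DUSP16 was not tested, 2 were called higher and 7 were not called, with a median of 0.76, and the share called higher was near the 22.7% of all genes. DUSP7, a cytoplasmic ERK phosphatase, was at least 2.65-fold higher in pLB (0.01 on the log2 scale and not called with normexp). DUSP7 was detected on no pLUM array and entered the test through pLB alone. ETV1, the third PEA3 factor, was 2.61-fold higher. The ETV1 call was lost with slide as a block, with the methods' t-test, with normexp (log2 fold change -0.17) and without pLUM replicate 2 or 3. DUSP1, a nuclear phosphatase with a wider choice of MAP kinases, gave -0.77, -0.67 and -1.13 in pLUM and -1.10, -0.92 and -1.54 in pLB, with overlap and a log2 fold change of -0.33 (limma adjusted p = 0.23).

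Of 17 genes of the cascade itself, from the adaptors to ERK, 5 were called higher, 4 lower and 8 in neither direction, with a median of 0.38. These shares were near those of all genes (22.7% higher and 23% lower). Their log2 fold changes lay between -1.38 and 1.45. NRAS was 2.72-fold, the adaptor SHC1 2.61-fold, PTPN11 (SHP2) 2.56-fold and MAP2K2 (MEK2) 2.00-fold higher in pLB. HRAS was 2.60-fold, the kinase ARAF 2.26-fold and the adaptor GAB1 2.16-fold lower. NRAS, SHC1, PTPN11 and ARAF each had a further probe that was called in the same direction. These differences lay close to the 2-fold threshold. With normexp NRAS, MAP2K2, ARAF and GAB1 fell short of the call, and 1 further pathway gene, HRAS, was still called lower. Without pLUM replicate 3 ARAF was no longer called (log2 fold change -0.94), and 2 further pathway genes, HRAS and GAB1, were called lower. GAB1 was not called without pLUM replicate 1 (-0.88) or pLB replicate 2 (-0.99), and MAP2K2 was not called without pLUM replicate 1 or 2 or pLB replicate 1 or 2 (0.92 to 0.99). MAPK3, which encodes ERK1, gave 1.07-fold (limma adjusted p = 0.77) and was not called. CIC RNA, examined after the other values were known, was 2.26-fold higher in pLB (limma adjusted p = 0.0026), a call that was lost without pLUM replicate 2 (log2 fold change 0.99).

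**Figure D4:**
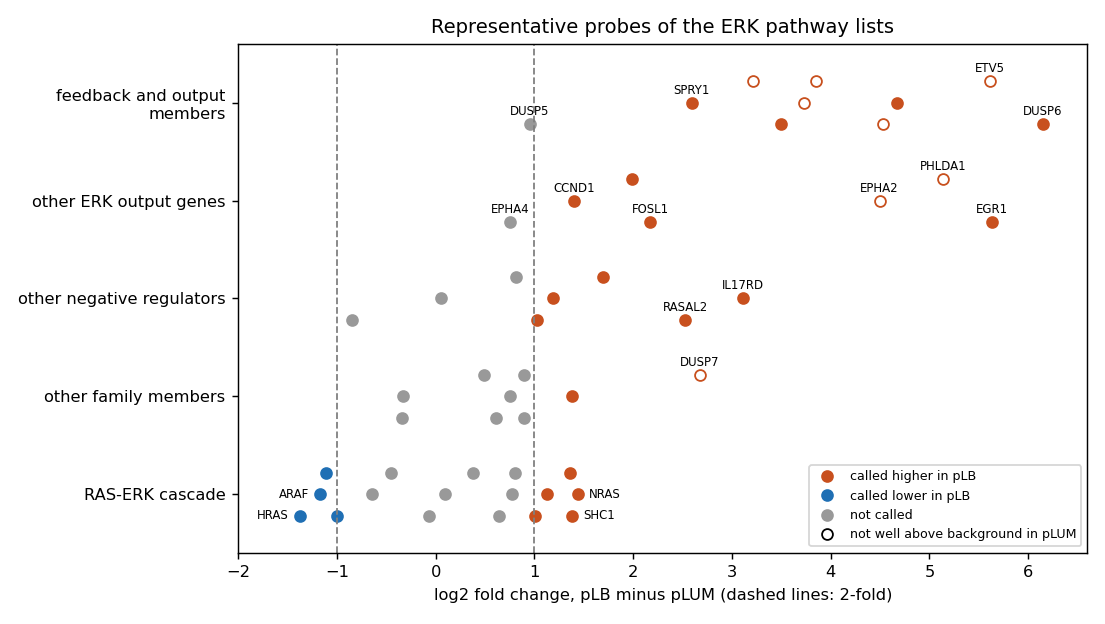
Fitted log2 fold change, pLB minus pLUM, of the representative probe of each gene in the 10 feedback and output genes and the 4 further pathway lists, coloured by call, with open symbols where the probe was detected on no pLUM array (a bound on such genes is lower than the value plotted). Vertical positions within a row only separate the points. The cascade genes lie between -1.38 and 1.45, whereas 9 of the 10 feedback and output genes lie above 2.5. Of these 10, 5 have open symbols, and their direction was fixed by the filter, whereas no cascade gene has an open symbol.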

How the data were processed

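RNA of 3 pLUM and 3 pLB samples was measured on 1-colour Agilent arrays. The authors deposited the intensity of each spot from Agilent Feature Extraction 10.10.1.1, background-subtracted and on a linear scale, with no normalization between arrays. Their processing notes also name Partek, with no role. Positions are those of the files (hg19). Intensities were divided by the 75th percentile of their array (449.0 to 868.9) and converted to log2. Control spots and spots with an outlier flag (296 to 387 per array) were left out, no spot was saturated, and repeated spots were averaged per probe. Probes detected (flagged well above background) on 3 or more of the 6 arrays were compared with limma 3.58.1 (lmFit and eBayes) in R 4.3.3, with Benjamini-Hochberg adjustment over all of them. All 12 probes of the 10 genes passed. A gene was represented by its tested probe with the highest mean. Differences between related genes, and between probes of a gene, were tested on within-array differences by exact permutation. Only 6 arrays limit the precision.

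The genes and lists were chosen with earlier results of these data known. Named were all 10 genes with all probes, EGFR, PHLDA1, EPHA2, EPHA4 and CCND1, and from each other list the called genes with the 2 largest changes in each direction. The remaining genes were named after their values were seen. Some cascade genes are included in the counts but are not reported by name here. Same-numbered arrays did not deviate together (correlations -0.27, -0.10 and -0.22), and numbers were not used as pairs. Alternatives were normexp (offset 50) on mean and background signals, quantile and median scaling, other filters, a floor, no fold threshold, the methods' t-test, the mean of a gene's probes, replicate and slide blocks, and leaving out each array. The fit was tested on simulated data.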

Additional observations from a re-analysis of the deposited data

How the results depend on the processing

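The members called higher in pLB numbered 9 of 10 (10 of 12 probes). When testing was limited to probes detected on every array, DUSP4, DUSP6, SPRY1 and SPRY2 were called higher, with 5 probes. SPRED1, SPRED2, ETV4 and ETV5 were then not tested, so that these are not counts out of 10 and 12. SPRY4 fell to its probe at base 437 (log2 fold change 0.57) and, like DUSP5, was not called. Over all probes, this setting called 3739 higher and 3897 lower. Calls of the other pathway genes were 18 higher and 4 lower, and with normexp 9 and 1. Normexp moved the median of all genes from 0.04 to -0.21 on the log2 scale and the probes called higher from 5054 to 3004. It turned ETV1 to -0.17, MAPK3 from 0.10 to -0.20 and SPRY1 minus SPRY4 from -1.94 to 1.28. Leaving out each array in turn gave 2 (without pLUM replicate 3) to 5 other pathway genes lower, SPRY2 minus SPRY4 between -0.13 and 0.32, and MAPK3 between -0.067 and 0.37. With the replicate block the paired fit kept the 9 members called and the log2 fold changes, and changed no call of a member. All other alternatives kept the counts within 1.5 times. The number of arrays and the dim pLUM signals, whose size depends on the background correction and its offset, limit the folds of SPRY4, SPRED1, SPRED2, ETV4 and ETV5.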
